A study of Mus musculus with 6 samples.

Results

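Described here are 10 genes of protein folding in the endoplasmic reticulum and of the stress response that watches over it, in mouse hepatocytes with and without Bim. The genes are Hspa5, Hsp90b1, Calr, Canx, Pdia3, Pdia4, Xbp1, Dnajb9, Herpud1 and Atf6, found by symbol among the 48353 genes of the files. They were listed by name and not by a cut on any value, though earlier results of these data were known. Each gene's reads were summed over its transcripts in each library. All 10 had at least 1 library with reads and all 10 passed the filter on low values (a mean of at least 1 RPKM, the reads scaled to transcript length and library size), as did 11021 genes in all. Hepatocytes came as 3 Bim knock-out and 3 wild-type samples, all C57BL/6. In the knock-out, floxed Bim (Bim(lox/lox)) was deleted by Alb-Cre, a Cre recombinase driven by the hepatocyte-active albumin promoter. The wild-type label names neither a floxed allele nor a Cre transgene. The series title places the study in JNK signalling to BIM, a pro-apoptotic BCL-2 family protein, and in oxidative stress, steatosis and insulin resistance of obesity. The protocol speaks of male mice that ate regular chow or went on a high-fat diet at 8 to 10 weeks of age for 14 to 20 weeks. Neither age nor diet is given per sample, so diet and genotype cannot be told apart from the labels. Cells were freed with a collagenase A perfusion and polyadenylated RNA was read as single-end libraries. Nothing in the labels ties a sample to its own animal, and the p-values therefore rest on sample-to-sample spread that may be technical in part or in full.

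Hepatocytes secrete albumin and most other plasma proteins, all of which fold in the endoplasmic reticulum (ER) first. Hspa5 (BiP) and its co-chaperones bind unfolded chains, the lectins Calr and Canx hold chains that carry sugars, and protein disulfide isomerases form and reshuffle disulfide bonds. When unfolded protein builds up, the sensors IRE1 (Ern1), PERK (Eif2ak3) and ATF6 (Atf6) start the unfolded protein response, in which the factors XBP1, ATF4 and the cleaved form of ATF6 switch on chaperone and degradation genes. The ER stress response element (ERSE), known from the promoters of chaperone genes, is the usual place where cleaved ATF6 and XBP1 act together with the CCAAT-binding factor NF-Y.

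The promoters of the members are shown because some of them spell out the ERSE or a variant of it. The windows are those of RefSeq on GRCm38.p6, from 250 bases before to 50 bases after a gene's start, and 9 of the 10 members had one. The ERSE was searched on both strands as CCAAT, then 9 free bases, then CCACG. Its variant ERSE-II was searched as ATTGG, then 1 free base, then CCACG, and the XBP1-type element UPRE as TGACGTGG. In what follows letters run 5′ to 3′ on the gene's own strand, and capitals mark the fixed parts of the ERSE or ERSE-II, which read CGTGG and ATTGG where an ERSE lies on the opposite strand. The Hspa5 window (chr2:34771840-34772139, plus strand) is printed whole, and the others are printed as the element with its flanks of 20 bases (Hsp90b1 with both of its elements, chr10:86705513-86705676, minus strand; Calr, chr8:84847055-84847113, minus strand; Canx, chr11:50325780-50325838, minus strand; Herpud1, chr8:94386357-94386407, plus strand).
Hspa5: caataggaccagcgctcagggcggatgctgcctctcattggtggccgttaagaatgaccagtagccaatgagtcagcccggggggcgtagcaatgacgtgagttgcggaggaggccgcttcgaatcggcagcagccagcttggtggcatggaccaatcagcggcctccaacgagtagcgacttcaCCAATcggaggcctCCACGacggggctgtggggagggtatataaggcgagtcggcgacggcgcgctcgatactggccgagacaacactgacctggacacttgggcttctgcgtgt
Hsp90b1: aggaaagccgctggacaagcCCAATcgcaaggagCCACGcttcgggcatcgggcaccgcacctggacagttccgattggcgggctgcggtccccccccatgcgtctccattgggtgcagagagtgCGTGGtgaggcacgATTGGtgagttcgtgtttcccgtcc
Calr: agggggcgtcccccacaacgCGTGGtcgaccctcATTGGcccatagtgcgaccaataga
Canx: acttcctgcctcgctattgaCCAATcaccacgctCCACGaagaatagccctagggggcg
Herpud1: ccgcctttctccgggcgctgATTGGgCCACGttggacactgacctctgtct
Hspa5 carried an exact ERSE match from 65 to 47 bases before the start. Hsp90b1 held a pair, from 212 to 194 bases before the start on its own strand and from 107 to 89 on the opposite one. In Calr the ERSE lay from 162 to 144 bases before the start on the opposite strand, and in Canx from 145 to 127 on the gene's own strand. Herpud1 held an ERSE-II from 52 to 42 bases before the start. No window of Pdia3, Pdia4, Xbp1 or Dnajb9 held these letters, and none of the 9 windows held the UPRE. Of all 32851 windows, 39 (0.119%) held an ERSE, 12 (0.0365%) an ERSE-II and 222 (0.676%) a UPRE. A match describes letters and is no measured binding site. Only exact letters were searched, so copies that differ in a fixed base were not counted.

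**Figure D1:**
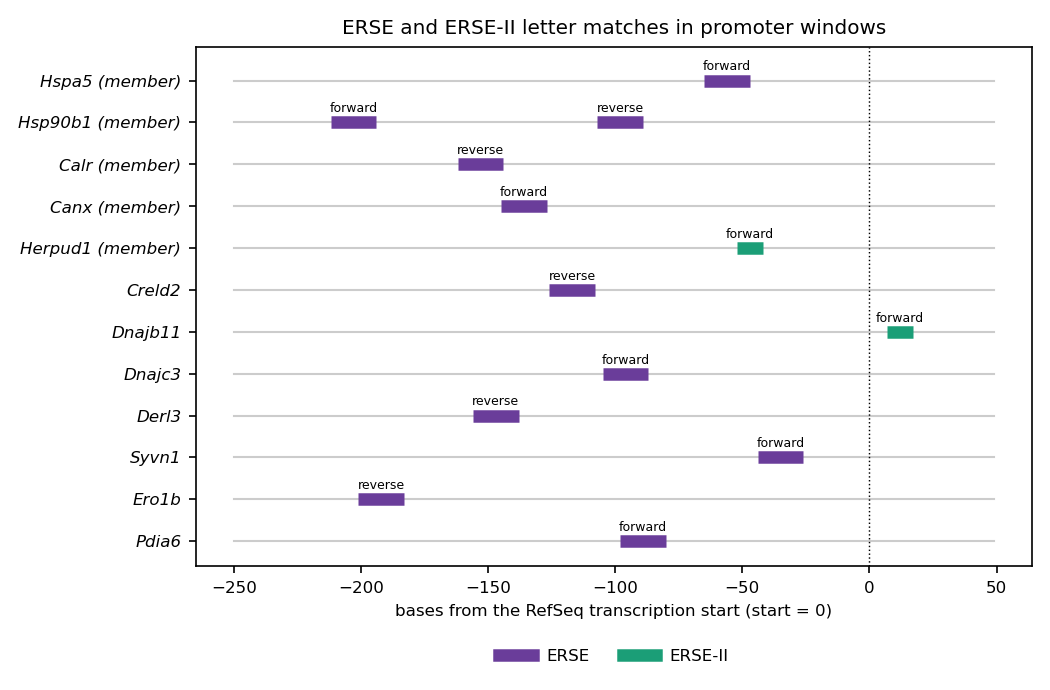
Distance from the gene's start in bases (horizontal axis) of the ERSE and ERSE-II matches in RefSeq promoter windows, 1 line per gene, with members on top and genes of the folding lists under them, and forward meaning the gene's own strand. Among the members, Hspa5, Hsp90b1, Calr and Canx hold an ERSE, Hsp90b1 holds it in both orientations, and Herpud1 holds the ERSE-II.

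In what follows RPM stands for a gene's reads per 1000000 estimated reads of its library. The libraries held 25335211 to 28245264 estimated reads in knock-out hepatocytes and 28131355 to 31130519 in wild-type hepatocytes. Bcl2l11, the gene of BIM, was listed at 0 reads in knock-out replicates 1, 2 and 3, against 0, 680 and 478 reads in wild-type replicates 1, 2 and 3. Wild-type replicate 1 was thus at 0 like the knock-out libraries, and the limma adjusted p was 0.941. The locus has 8 transcripts, and at loci with several an exact 0 may be a failed estimate, as described further on, so neither the zeros of the knock-out libraries nor that of wild-type replicate 1 show that the gene had no reads. All 6 libraries went against the protocol's male mice: Xist, which female cells express, had 25083, 25462 and 28120 reads in the knock-out libraries, against 38904, 29694 and 26337 in the wild-type ones, and the Y-linked Ddx3y, Eif2s3y, Kdm5d and Uty were at 0 in every library. Hepatocyte markers were present, with 7 of 8 read in at least 1 library and Tat at 0 in all 6. Wild-type replicate 1 stood apart with 10 of 10 macrophage markers at their highest, summing to 5998 RPM, against 100.4 to 146 in the knock-out libraries and 136 and 186 in the other wild-type ones. Its hepatocyte markers summed to 26340 RPM, of which Alb made up 24895, within the 24422 to 54031 of all 6 libraries. Of the other hepatocyte markers, wild-type replicate 1 was the lowest library for Apoa1 (844 to 1386 RPM in knock-out, against 499, 1606 and 966 in wild-type replicates 1, 2 and 3), Ttr (363 to 424 in knock-out, against 219, 456 and 315) and Cps1 (20.7 to 31.9 in knock-out, against 12.7, 35.8 and 22.0). Alb and Serpina1c were lowest in wild-type replicate 3 instead (22306 and 523 RPM, against 24895 and 620 in wild-type replicate 1). Hnf4a had 238, 208 and 0 RPM in knock-out, against 67.4, 172 and 289 in wild-type replicates 1, 2 and 3. Asgr1 had 60.8, 39.9 and 0 in knock-out, against 27.7, 0 and 0 in wild-type. Endothelial markers were at 0 in every library but wild-type replicate 1, where 2 of 6 were read and summed to 111 RPM. Interferon-response genes were high in knock-out replicate 1 (4175 RPM) and wild-type replicate 2 (4386), against 312 to 922 in the other libraries. Stellate markers (6 of 6) and neutrophil markers (4 of 4) were at 0 in all libraries, as were Krt19 and Krt7 of the biliary markers and Jchain and Tnfrsf17 of plasma cells, a cell type rich in ER. Of the same lists, Sdc1 had 240.1, 317 and 324 RPM in knock-out, against 0, 271 and 320.5 in wild-type. Spp1 had 0, 544 and 196 RPM in knock-out, against 372, 115 and 151 in wild-type, and Sox9 was read in all 6 libraries at 17.1 to 31.4 RPM.

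An exact 0 needs care in these files. The loci counted had at least 3 libraries above 0, with a median above 100 reads over those libraries. Of their values, 0.0156% were exactly 0 where a locus has 1 transcript, against 18.0% where it has several. Among the members, 3 of 60 values were 0, 1 each in Xbp1, Herpud1 and Atf6, and these genes are given per library with no mean or fold. The other 7 members had reads in all 6 libraries. Values below are RPM, which do not change with the choice among a gene's own transcripts. The loci of Hsp90b1, Pdia4 and Atf6 also hold transcripts of other genes. They list 7, 3 and 4 transcripts, of which 5, 2 and 2 are the member's, so RPM there may depend on how reads were divided. The total behind RPM sums estimated reads, so any failed estimate is missing from it. RPKM values depend on the transcript chosen as well, and are given with the test. In bulk RNA fewer cells of a type and less RNA per cell cannot be told apart.

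Hspa5, the ER member of the HSP70 family and the most abundant of the 10, stood at 2606, 3029 and 2399 RPM in knock-out replicates 1, 2 and 3, against 1508, 1882 and 2933 in wild-type replicates 1, 2 and 3. The groups overlapped, since wild-type replicate 3 lay above 2 of the 3 knock-out libraries, while wild-type replicates 1 and 2 lay below all of them. The means were 2678 ± 321 RPM in knock-out libraries, against 2108 ± 739 in wild-type libraries (mean ± SD, n = 3 per genotype). The gene (chromosome 2, 34771970 to 34777547, plus strand of GRCm38) averaged 2056 ± 491 RPKM in knock-out libraries, against 1804 ± 832 RPKM in wild-type libraries. Knock-out minus wild-type came to 0.26 on the log2(RPKM + 1) scale (SE 0.39, 95% interval -0.75 to 1.27), with a limma adjusted p of 0.948. In RPM the difference was 0.39 on the log2 scale (95% interval -0.21 to 1.00, limma adjusted p = 0.999).

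Hsp90b1 (GRP94), the ER member of the HSP90 family, had 777, 1083 and 854 RPM in knock-out replicates 1, 2 and 3, against 506, 609 and 1096 in wild-type replicates 1, 2 and 3. As with Hspa5, wild-type replicate 3 was high, here the highest of all 6, and wild-type replicates 1 and 2 were the lowest. The gene (chromosome 10, 86690209 to 86705509, minus strand) averaged 491 ± 102 RPKM in knock-out libraries, against 401 ± 203 RPKM in wild-type libraries (mean ± SD, n = 3 per genotype). The difference was 0.39 on the log2(RPKM + 1) scale (SE 0.41, 95% interval -0.66 to 1.43, limma adjusted p = 0.943).

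The lectin chaperones divided into a variable and a steady gene. Calr, calreticulin, the soluble lectin that also stores calcium, had 674, 1077 and 764 RPM in knock-out replicates 1, 2 and 3, against 529.5, 628 and 861 in wild-type replicates 1, 2 and 3. Its highest library was 2.03 times its lowest, and the groups overlapped. Canx, calnexin, the membrane-bound lectin, had 606, 729 and 663 RPM in knock-out, against 613, 575 and 707 in wild-type. Here the highest library was 1.27 times the lowest, the narrowest span among the 7 members read in every library. Calr (chromosome 8, 84841850 to 84846934, minus strand) averaged 1172 ± 357 RPKM in knock-out libraries, against 935 ± 180 RPKM in wild-type libraries, and Canx (chromosome 11, 50293961 to 50325673, minus strand) 243 ± 29.1 RPKM in knock-out libraries, against 238 ± 29.4 RPKM in wild-type libraries (mean ± SD, n = 3 per genotype). The differences on the log2(RPKM + 1) scale were 0.30 for Calr (SE 0.27, 95% interval -0.39 to 0.99) and 0.031 for Canx (SE 0.15, 95% interval -0.35 to 0.41), with limma adjusted p of 0.941 and 1.00.

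Pdia3 (ERp57), the disulfide isomerase that works with the lectins, had 823, 1070.1 and 1001 RPM in knock-out replicates 1, 2 and 3, against 758, 782 and 1120.4 in wild-type replicates 1, 2 and 3. Pdia4 (ERp72), an isomerase found in complexes with Hspa5, had 229, 369.6 and 259.6 RPM in knock-out, against 229.7, 191 and 345.5 in wild-type. In both genes knock-out replicate 2 and wild-type replicate 3 were the highest libraries and the groups overlapped. In RPKM, Pdia3 (chromosome 2, 121413775 to 121438687, plus strand) averaged 842 ± 490 in knock-out libraries, against 705 ± 293 in wild-type libraries, and Pdia4 (chromosome 6, 47796141 to 47813430, minus strand) 164 ± 44.8 in knock-out libraries, against 146 ± 44.8 in wild-type libraries (mean ± SD, n = 3 per genotype). Pdia3 differed by 0.19 on the log2(RPKM + 1) scale (SE 0.59, 95% interval -1.32 to 1.71, limma adjusted p = 1.00). For Pdia4 the difference was 0.17 (SE 0.30, 95% interval -0.61 to 0.94, limma adjusted p = 0.976).

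Dnajb9 (ERdj4), a J-domain co-chaperone of Hspa5 that holds IRE1 in check in hamster cells, was the lowest of the 7 genes read in every library. It had 36.3, 40.1 and 45.9 RPM in knock-out replicates 1, 2 and 3, against 52.8, 27.4 and 46.8 in wild-type replicates 1, 2 and 3. Wild-type libraries were both the highest and the lowest, with all knock-out libraries between them. The gene (chromosome 12, 44205897 to 44210068, minus strand) has 1 transcript in the files and averaged 29.8 ± 2.62 RPKM in knock-out libraries, against 31.1 ± 9.07 RPKM in wild-type libraries (mean ± SD, n = 3 per genotype). The difference was -0.020 on the log2(RPKM + 1) scale (SE 0.26, 95% interval -0.70 to 0.66, limma adjusted p = 1.00).

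Herpud1, a membrane protein that serves the degradation of misfolded ER proteins, had 166, 290.0 and 231 RPM in knock-out replicates 1, 2 and 3, against 0, 122 and 263 in wild-type replicates 1, 2 and 3. Apart from the 0, knock-out replicate 2 and wild-type replicate 3 were again the highest libraries. Its RPKM values (chromosome 8, 94386438 to 94395377, plus strand) were 124, 216 and 162 in knock-out, against 0, 105 and 192 in wild-type.

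Xbp1 and Atf6, the transcription factors, had their 0 in the same library, knock-out replicate 2. Both zeros may be failed estimates, since 18.0% of values were 0 at the loci with several transcripts counted above. Knock-out replicate 2 was the highest or second highest library of Hspa5, Hsp90b1, Calr, Canx, Pdia3 and Pdia4. Xbp1 (chromosome 11, 5520659 to 5525893, plus strand) had 281, 0 and 276 RPM in knock-out replicates 1, 2 and 3, against 208, 255 and 275 in wild-type replicates 1, 2 and 3. Atf6 (chromosome 1, 170704674 to 170867771, minus strand) had 113, 0 and 114 RPM in knock-out, against 126, 94.3 and 110.1 in wild-type. Leaving the zeros aside, the knock-out libraries of Atf6 lay within the wild-type range and those of Xbp1 lay just above its upper end. The files hold 4 transcripts of Xbp1, with the lengths of the GENCODE models, and the shortest intron in those models is 300 bases. The short stretch that IRE1 removes from Xbp1 mRNA in the stress response is thus no model of its own, so no value for the spliced form can be read from these files.

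**Figure D2:**
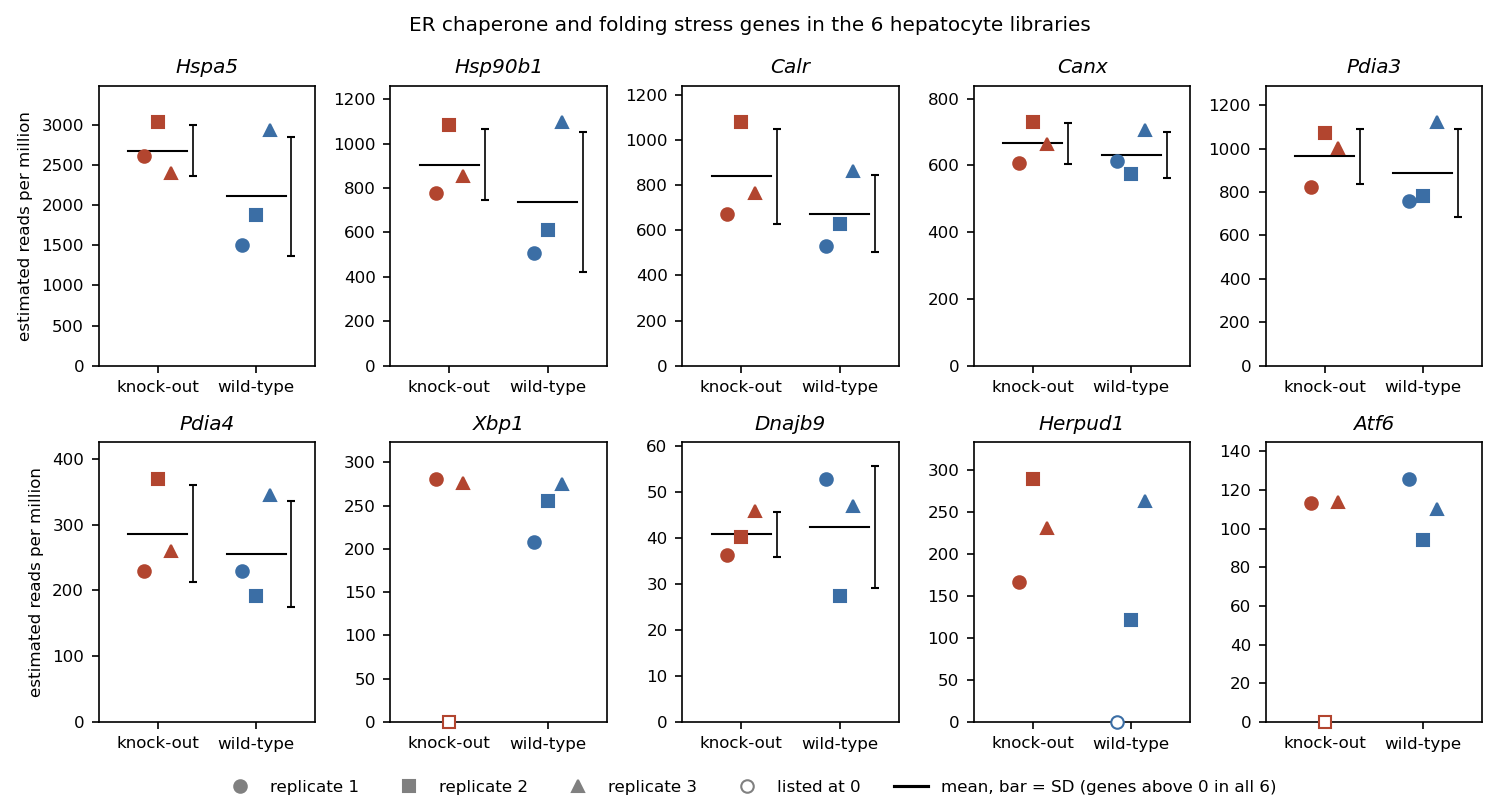
RPM (vertical axes) of each member in the 3 knock-out libraries, left, and the 3 wild-type libraries, right, with the mean and SD where no library is at 0. Hspa5, Hsp90b1 and Calr show wild-type replicate 3 above at least 2 of the 3 knock-out libraries and wild-type replicate 1 lowest, Canx is nearly level, and Xbp1, Herpud1 and Atf6 each have 1 library at 0.

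Between genes, levels were compared per length, as RPM per kilobase of the longest annotated transcript, with the median over the libraries. That transcript was not always the one given most reads. It took at most 18.7% of the gene's reads in Calr and 11.3% in Hsp90b1, and none in Herpud1. Hspa5 stood first at 681, followed by Pdia3 (329.2), Calr (329.1), Hsp90b1 (253), Canx (149), Pdia4 (102) and Dnajb9 (23.0). Over the libraries above 0, Xbp1 stood at 129, Herpud1 at 118 and Atf6 at 15.6 on the same scale. Hspa5 was the highest of the 10 in each of the 6 libraries. The library ranges of neighbours in that order overlapped from Pdia3 down to Pdia4, as did those of Xbp1 and Herpud1.

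Which transcript the reads were given to moved the RPKM values of several members. In Hspa5 the 3672-base transcript ENSMUST00000028222 took 0%, 82.8% and 0% of the gene's reads in knock-out replicates 1, 2 and 3, against 22.8%, 0% and 76.5% in wild-type replicates 1, 2 and 3. The 2613-base transcript ENSMUST00000100171 took 87.0%, 0% and 90.9% in knock-out, against 44.8%, 97.9% and 0% in wild-type. In Pdia3 the 722-base transcript ENSMUST00000135079 took 0%, 54.8% and 9.7% in knock-out, against 0%, 44.8% and 17.9% in wild-type, and the gene's RPKM spanned 3.73-fold over the libraries where its RPM spanned 1.48-fold. Xbp1 was given to the 2129-base ENSMUST00000063084 alone in knock-out replicate 1 and in wild-type replicates 2 and 3, and to the 897-base ENSMUST00000149623 alone in wild-type replicate 1, which had the highest Xbp1 RPKM (313) and the lowest RPM above 0. In Calr the 943-base ENSMUST00000154774 took 83.7%, 94.4% and 61.3% in knock-out replicates 1, 2 and 3, against 100%, 90.4% and 81.3% in wild-type. The RPKM of Calr thus rests mostly on a model shorter than its longest one of 2184 bases. Pdia4, Dnajb9 and Atf6 kept all their reads on 1 transcript each. These shares switch between libraries of the same group, and whether they stand for transcripts present in the cells was not tested.

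**Figure D3:**
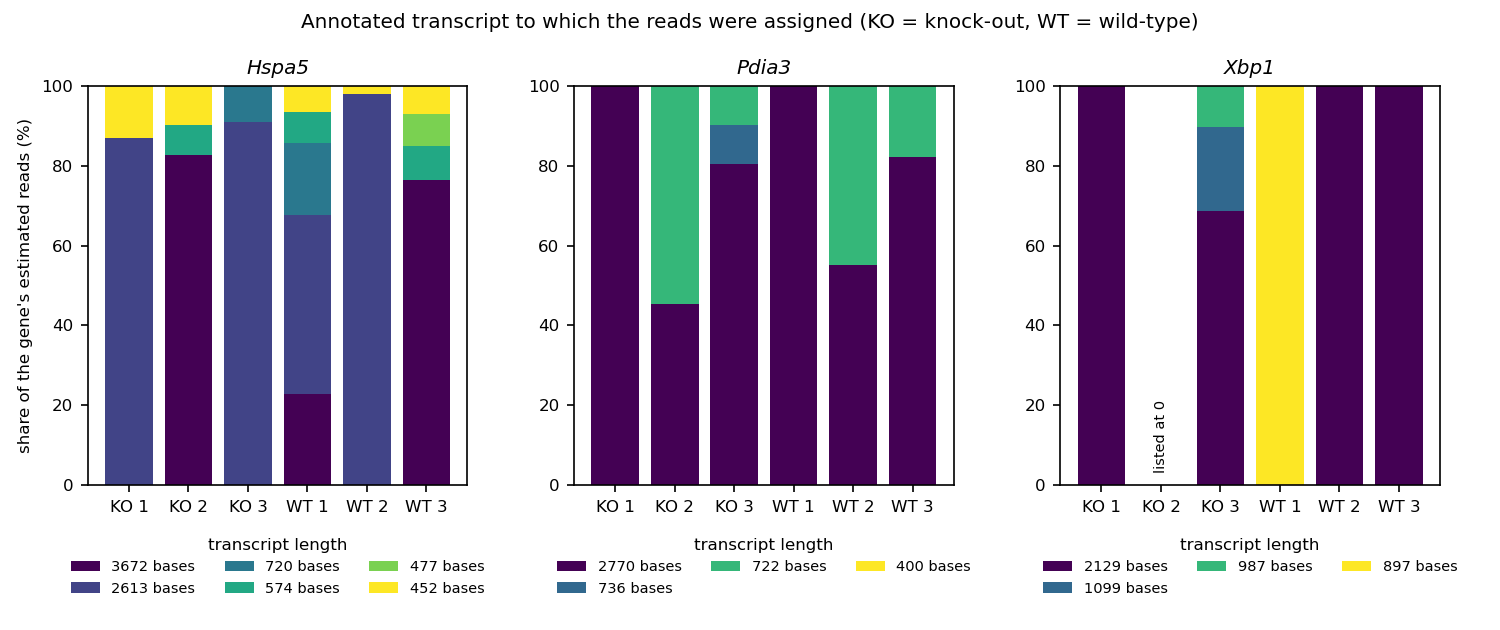
Percent of a gene's estimated reads (axis 0 to 100) given to each annotated transcript in the 3 knock-out and 3 wild-type libraries, for Hspa5, Pdia3 and Xbp1. Hspa5 changes its leading transcript within both groups, from 87.0% on the 2613-base transcript in knock-out replicate 1 to 0% in knock-out replicate 2.

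Between the genotypes, 0 of the 10 members passed the limma test at an adjusted p of 0.05, where 87 of the 11021 genes tested did (0.789%), and 0 members had an unadjusted p under 0.05, where 208 genes did. Among the 5538 tested genes above 0 in all 6 libraries, 0 passed (0%), with 130 at an unadjusted p under 0.05, and 0 in RPM (0%), with 70 at an unadjusted p under 0.05. The members' adjusted p ran between 0.941 and 1.00. The 2 groups of libraries did not overlap in 0 of the 7 members read in every library, where they did not overlap in 211 of the 5538 genes (3.81%). The median difference in RPM was 0.18 on the log2 scale over the 7 members, positive in 6 of them, and 0.011 over the 5538 genes, positive in 2966. The intervals were wide: in RPM that of Hsp90b1 ran from -0.35 to 1.07 and that of Canx from -0.23 to 0.39, so with 3 libraries a group they hold both no difference and, for Hsp90b1, one of 1 on the log2 scale. Leaving out wild-type replicate 3 raised the difference of Hspa5 on the log2(RPKM + 1) scale to 0.61, and leaving out wild-type replicate 2 turned it to -0.034.

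**Figure D4:**
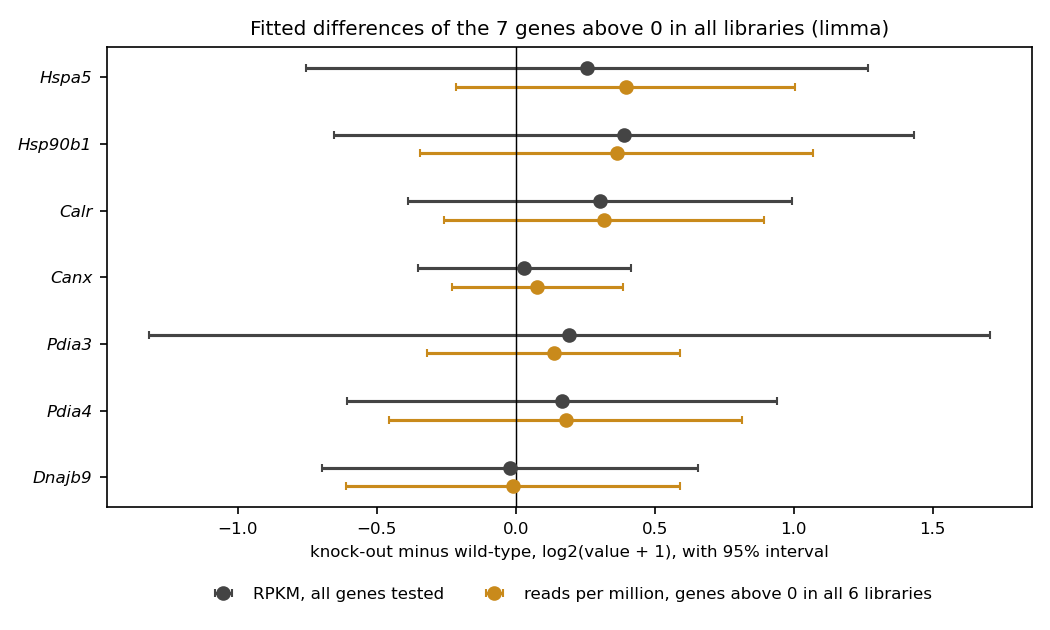
Difference of knock-out minus wild-type on the log2 scale (axis), with the 95% interval of the limma fit, for the 7 members read in every library, in RPKM and in RPM. Each interval crosses 0, and that of Canx in RPM, -0.23 to 0.39, is the narrowest in that scale.

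In each of the 7 members read in every library, libraries of 1 genotype lay further apart than the means of the genotypes. In 6 of the 7, all but Dnajb9, the highest 2 libraries in RPM were knock-out replicate 2 and wild-type replicate 3, 1 of each genotype. The same pair was on top in 343 of the 5538 genes (6.19%). Knock-out replicate 3 came next in 5 of those 6 members, and wild-type replicate 1 or 2 came last in all 6. Wild-type replicate 1 was lowest in 4 of the 7 (Hspa5, Hsp90b1, Calr and Pdia3), and in 1117 of the 5538 genes (20.2%). The median ratio of the highest to the lowest library was 1.94 over the members and 1.46 over all 5538 genes. This order was seen in the values first, so it is a description with no test, and genes that share libraries are not independent. The library that was lowest in 4 members was also the one with the highest macrophage genes and the lowest Apoa1, Ttr and Cps1. It was not the lowest for Alb or Serpina1c, nor for Hnf4a and Asgr1, which were listed at 0 in other libraries. The part of all these genes in the order was not tested.

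The wider folding machinery was read through 6 lists of 100 genes, of which 99 were matched, 88 were tested and 48 were above 0 in all libraries. Of the 88, 1 passed the limma test, against 0.789% of all genes. It was Ssr2, a subunit of the translocon-associated protein complex, with 4357, 4285 and 4324 estimated reads in knock-out, against 0, 0 and 0 in wild-type (limma adjusted p = 0.000148), values at a locus where zeros may be failed estimates. The 48 genes above 0 held 0 calls, and their smallest limma adjusted p was 0.941. Fitted alone, the 5538 genes above 0 in all libraries held 0 calls too. In 13 of the 48 the pair of knock-out replicate 2 and wild-type replicate 3 was on top, against 343 of the 5538 genes (6.19%). The shares of 0.789% and 6.19% are also those to set beside the counts of each list below, which were not tested as sets.

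Among the ER co-chaperones, 0 of 15 tested passed, and 4 of the 9 above 0 had that pair on top (Hyou1, Sil1, Sdf2l1 and Creld2). Sdf2l1, a partner of the J-domain proteins of the ER, had 11.3, 21.3 and 11.8 RPM in knock-out, against 6.30, 7.84 and 16.8 in wild-type, a span of 3.37-fold with overlapping groups. Creld2, an ER stress-inducible gene named after its values were seen, had 39.2, 52.6 and 39.0 in knock-out, against 24.1, 28.1 and 50.3 in wild-type. Hyou1, the large HSP70-like protein that recharges Hspa5 with ATP, also named after its values were seen, had 182, 263 and 200.4 in knock-out, against 121, 151 and 247 in wild-type. These 3 genes repeat the library order of Hspa5 in its top pair and in wild-type replicate 1 as the lowest. Dnajc1, a J-domain protein of the ER membrane, averaged 13.6 ± 1.36 RPKM in knock-out libraries, against 19.4 ± 5.67 RPKM in wild-type libraries (mean ± SD, n = 3 per genotype), a difference of -0.45 on the log2(RPKM + 1) scale with a limma adjusted p of 0.941. In RPM it averaged 53.5 ± 6.45 in knock-out libraries, against 55.6 ± 3.61 in wild-type libraries, a difference of -0.057 on the log2 scale.

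Of the disulfide isomerases and ER oxidases, 0 of 14 tested passed and 2 of 8 above 0 had the pair on top (Pdia6 and Erp29). P4hb, the founding protein disulfide isomerase, was level in RPM, 946 ± 46.9 in knock-out libraries, against 931 ± 91.4 in wild-type libraries, and its RPKM averaged 1584 ± 818 in knock-out libraries, against 929 ± 645 in wild-type libraries (mean ± SD, n = 3 per genotype). Tmx3, a membrane-bound isomerase, averaged 9.62 ± 1.14 RPKM in knock-out libraries, against 11.8 ± 2.23 in wild-type libraries, with differences of -0.27 in RPKM (limma adjusted p = 0.941) and -0.27 in RPM on the log2 scale. Of the genes of glycoprotein quality control, 0 of 14 passed and 4 of 10 had the pair on top (Ganab, Prkcsh, Lman2 and Erlec1). Mlec, malectin, averaged 46.0 ± 6.39 RPKM in knock-out libraries, against 38.7 ± 7.44 in wild-type libraries, with differences of 0.25 in RPKM (limma adjusted p = 0.941) and 0.27 in RPM on the log2 scale. Erlec1, a lectin of ER degradation, averaged 32.3 ± 2.89 RPKM in knock-out libraries, against 48.4 ± 25.7 in wild-type libraries, and its difference was -0.45 in RPKM and 0.17 in RPM on the log2 scale.

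In ER-associated degradation 0 of 22 tested passed and 2 of 11 above 0 had the pair on top (Syvn1 and Bcap31). Syvn1, the ubiquitin ligase HRD1, had 135, 146 and 134 RPM in knock-out, against 84.6, 129 and 149 in wild-type. Ube2j1, a ubiquitin-conjugating enzyme of the ER, averaged 172 ± 16.7 RPM in knock-out libraries, against 168 ± 9.05 in wild-type libraries, within the spread. Its RPKM averaged 69.1 ± 8.30 in knock-out libraries, against 120.2 ± 81.3 in wild-type libraries, a difference of -0.60 on the log2(RPKM + 1) scale (limma adjusted p = 0.941). Of the sensors and transcription factors 0 of 9 tested passed, and 0 of the 4 above 0 had the pair on top. Atf4, the factor translated when PERK is active, had 179, 156 and 192 RPM in knock-out, against 251, 168 and 183 in wild-type. Ddit3 (CHOP), a target of ATF4 named after its values were seen, had 89.9, 80.7 and 51.9 in knock-out, against 104, 46.5 and 55.0 in wild-type. Both were highest in wild-type replicate 1, the library in which Hspa5, Hsp90b1, Calr and Pdia3 were lowest and macrophage genes highest. Creb3, an ER-anchored factor related to ATF6, had 113, 99.98 and 97.1 in knock-out, against 59.1, 95.3 and 103 in wild-type. In the translocon and signal peptidase list, 1 of 14 tested passed (Ssr2) and 1 of 6 above 0 had the pair on top (Spcs3).

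**Figure D5:**
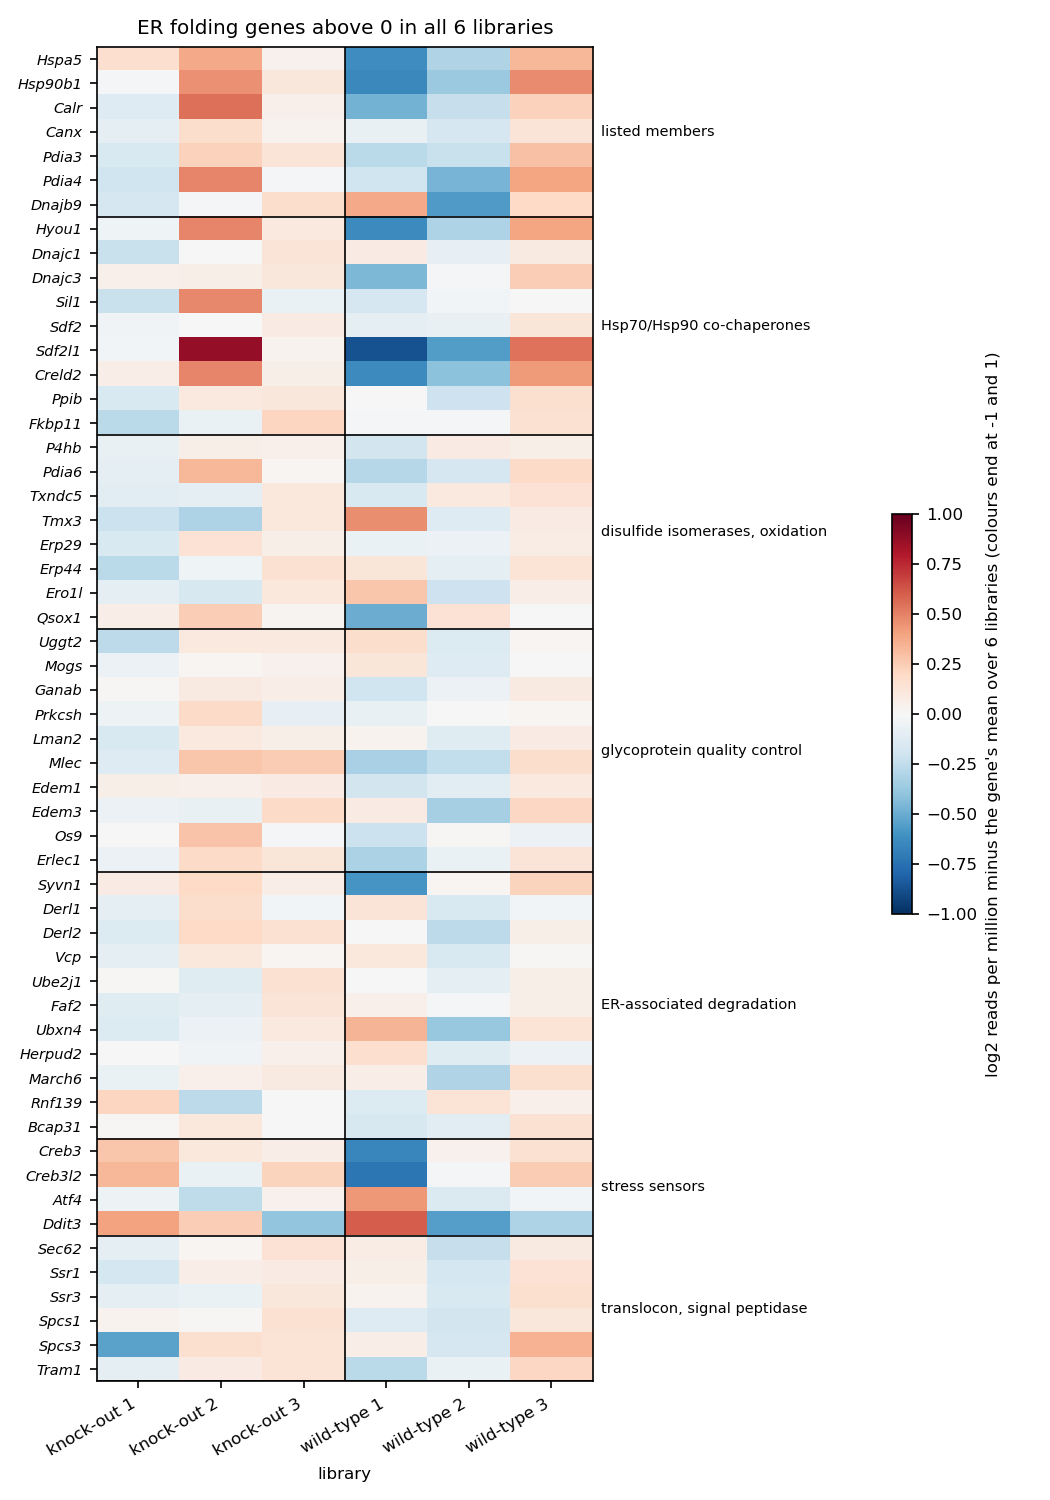
RPM of the members and list genes above 0 in all 6 libraries, as log2 RPM minus the gene's mean log2 RPM over the libraries (red above, blue below), with knock-out libraries left and wild-type libraries right. Knock-out replicate 2 and wild-type replicate 3 are the highest for Hspa5, Hsp90b1, Calr, Canx, Pdia3 and Pdia4, and Atf4 and Ddit3 peak in wild-type replicate 1.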

How the data were processed

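Single-end libraries of polyadenylated hepatocyte RNA were made from 3 samples lacking Bim and 3 wild-type samples, per the labels, and groups and replicate numbers came from the sample titles. The deposited files, 1 per library, list 118492 transcripts each with a read count, which is an estimate, and its RPKM. TopHat2 (version 2) and the build GRCm38 (mm10) are named in the submitters' processing notes. How reads were divided among transcripts, and whether strand was used, are steps not given in the sources used here, and reads of overlapping genes on opposite strands cannot be told apart. All 57 member counts above 0 in the deposited files are even.

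From these, reads and RPKM were summed per gene. Symbols matched 47993 of 48353 genes. RPKM sums depend on the transcript reads were given to. RPM (reads per 1000000 estimated reads of the library) do not change with the choice among a gene's own transcripts. They can change where transcripts of other genes share the locus. Genes whose mean reached 1 RPKM were tested on log2(RPKM + 1) with limma 3.58.1 in R 4.3.3 (trended eBayes, 2-sided, no covariate, all 6 libraries, Benjamini-Hochberg threshold 0.05), since both deposited values are estimates and no test for whole counts was the main one. On this scale the change of a low gene is understated. The number of libraries and the 25335211 to 31130519 estimated reads in each limit the precision. Python 3.11.15 made the tables and figures, with pandas 2.3.3, numpy 2.4.6 and matplotlib 3.10.9. By the rule for names, the members and Bcl2l11 are named, and in each list any called gene, or in its absence the 2 of smallest p among those above 0 in all 6 libraries. Other list genes are said to be named after their values were seen, or are listed only as having a given library order. Members and lists were chosen with earlier results of these data known. Alternatives tried were a pseudocount of 0.1, other filters (none, or a mean of at least 5), zeros left out or missing, quantile normalization, RPM, voom on the reads divided by 2, a replicate block and leaving out libraries. Omitting both libraries with high interferon genes, and RPM over genes above 0, were added after the data were seen. Protein sequences were not used here.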

Additional observations from a re-analysis of the deposited data

How the results depend on the processing

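Of 164 differences of the members recomputed under 17 settings, 0 passed the threshold (lowest limma adjusted p 0.799) and 14 changed sign. Members called were 0 in every setting run. With quantile normalization the difference of Dnajb9 was 0.073 and with voom 0.0084. With zeros taken as missing that of Atf6 was 0.028. Without the 2 libraries high in interferon genes that of Hspa5 was -0.12. Leaving out 1 library at a time moved the difference of Hspa5 between -0.034 and 0.61, Hsp90b1 between 0.079 and 0.77, Calr between 0.068 and 0.47, Canx between -0.063 and 0.12, Pdia3 between -0.25 and 0.62, Pdia4 between -0.045 and 0.40, and Dnajb9 between -0.28 and 0.14. The same settings moved the fitted difference of Xbp1 between -3.96 and -0.055, Herpud1 between 0.20 and 3.995 and Atf6 between -2.23 and 0.028, sizes that depend on how a 0 is treated. Single values turned sign for Canx without knock-out replicate 3 (-0.05), for Pdia3 without wild-type replicate 1 (-0.22), and for Dnajb9 without knock-out replicate 1 (0.04) or wild-type replicate 3 (0.07).

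Over all genes the 87 calls became 0 among genes above 0, 0 with zeros as missing, 0 in RPM among genes above 0, and 298 without the libraries high in interferon genes. Leaving out 1 library gave 171 (without wild-type replicate 3) to 198 (without wild-type replicate 1). With the replicate number as a block 0 genes were called by limma, 198 had an unadjusted p under 0.05, and 0 members were called. Libraries with the same number did not deviate together (correlations of -0.16, -0.05 and -0.01 over 5538 genes). Deviations were taken from the mean of the 3 libraries of a group, so these correlations cannot show whether same-numbered samples were prepared together. No library correlated best with its own number. The highest of the 9 correlations between the genotypes were 0.31 (knock-out replicate 1 with wild-type replicate 2), 0.22 (knock-out replicate 3 with wild-type replicate 1) and 0.15 (knock-out replicate 2 with wild-type replicate 3), and the labels give no such pairing. Among genes above 0 in all 6 libraries the smallest limma adjusted p was 0.66. With zeros as missing, 8677 genes were tested and the smallest limma adjusted p was 0.31. Some settings held fewer genes or libraries, and the cause of the changes in the number of calls was not tested.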

Other observations

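Other genes with an ERSE or ERSE-II in their window were looked at after the members' values were seen. Over all windows 49 genes held an ERSE or ERSE-II, 42 of them were matched in the files, and 11 were tested and above 0 in all 6 libraries. In 7 of the 11 the highest libraries in RPM were knock-out replicate 2 and wild-type replicate 3: Hspa5, Hsp90b1, Calr, Canx, Pdia6, Creld2 and Syvn1. Of the 7 that are not members, 3 had that pair on top, and of the 3 outside the members and the lists (Hnrnpa3, Krtcap2 and Pan2) 0 did. Hnrnpa3 and Pan2 held an ERSE, and Krtcap2 held an ERSE-II, from 17 to 27 bases after the start. In all 5538 genes the pair was on top in 6.19%. Elements are shown for 2 of the 3 non-members with that pair on top, and for none of the non-members without it (Hnrnpa3, Krtcap2, Pan2 and Dnajc3). They have capitals as above and flanks of 20 bases, from RefSeq on GRCm38.p6. They are those of Pdia6 (chr12:17266471-17266529, plus strand) and Creld2 (chr15:88819500-88819558, plus strand).
Pdia6: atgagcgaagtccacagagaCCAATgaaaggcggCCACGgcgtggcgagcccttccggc
Creld2: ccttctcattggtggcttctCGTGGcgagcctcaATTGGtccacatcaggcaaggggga
Pdia6, a disulfide isomerase of the ER, had 315, 423 and 343 RPM in knock-out, against 277, 300.3 and 386 in wild-type. Pdia3 and Pdia4, whose windows held neither element, had the same pair on top, and Dnajc3, whose window held an ERSE, did not, with 152, 153 and 159 in knock-out against 108, 145 and 175 in wild-type. These are counts of few genes, with no test.

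The sensor genes Ern1 and Eif2ak3, and Manf of the co-chaperone list, were each listed at 0 in a single library. As described above, an exact 0 may be a failed estimate. Ern1 (IRE1) had 3784, 0 and 3120 estimated reads in knock-out replicates 1, 2 and 3, against 5418, 3568 and 3288 in wild-type. Eif2ak3 (PERK) had 2476, 3330 and 3190 in knock-out, against 0, 2802 and 3732 in wild-type. Manf, a secreted ER stress-inducible protein, had 146, 193 and 173 RPM in knock-out, against 116, 0 and 154 in wild-type. All were named after their values were seen.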
